A study of Gallus gallus with 6 samples.

Results

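Ubiquitin is a small protein that cells join to other proteins to mark them for degradation, sorting or signaling. Deubiquitinating enzymes (DUBs) cut it off again. Most DUBs are cysteine proteases: the ubiquitin-specific proteases (USP), the ovarian tumour proteases (OTU) and the Josephin proteases, whereas the JAMM enzymes are metalloproteases. SUMO is a related modifier. It is activated by an enzyme made of SAE1 and UBA2, attached with the help of ligases such as the PIAS proteins, and removed by the SENP proteases and USPL1. In B-cells some of these enzymes are known for restraining NF-kB signaling and some for regulating DNA repair. The chicken bursa needs DNA repair while immunoglobulin genes are diversified by gene conversion.

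The genes described here are 45 DUB and SUMO pathway genes of 19219 genes in the count table. They were selected by a gene name that matches these families in the authors' table of genes called between embryonic day (ED) 16 and ED19, so the difference between the stages chose them. Every stage difference of these genes below is therefore a description. Where a gene is said to be called, the word only repeats how it was found or how a setting changed that, and supports nothing. The families are USP with 29 genes (CYLD, a USP by its domain, included), OTU with 6, SENP with 4 and JAMM with 2. ATXN3 is the Josephin enzyme, and SUMO3 and USPL1 complete the families. USP6NL matched by name only. The deposited domain description gives it a Rab-GTPase-TBC domain and no protease domain, and it is known as an activator of RAB GTPases. The RefSeq annotation of GRCg7b has 77 gene symbols of the same name pattern. Of these, 41 are among the genes described, and 36 are not, SUMO2, TNFAIP3, BAP1, UCHL3 and USP14 among them. Names are paired with identifiers only for called genes, so these 36 symbols could not be analysed by name here. UCHL1, also among the 36, was called under the hyphenated name UCH-L1, and its values are given below. Whether called genes without a symbol belong to the 36 was not determined.

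Bursal lymphocytes came from embryos of the Hy-Line W-36 layer line at both stages, with no treatment or genotype difference named and 3 libraries at ED16 (ED16_1 to ED16_3) and 3 at ED19 (ED19_4 to ED19_6). Each library was made from its own pool of 52 to 55 bursas, and the cells were purified on a density gradient with no sorting of B-cells stated. Library totals ranged from 27087661 to 34614652 gene counts. A log2 fold change below 0 stands for higher expression at ED19 than at ED16, and the value after its ± sign is the standard error of the fit. Elsewhere ± gives the SD of the 3 libraries of a stage. Levels are in RPKM (counts scaled to gene length and library total) or CPM (counts scaled to the library total alone).

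The cell type was checked with marker genes, which could be found by name only where called. Of 12 B-cell markers, 3 were found, BLNK, BACH2 and TNFRSF13C. They had counts in every library and summed to 251 to 311 CPM at ED16 and 605 to 777 CPM at ED19. Of 10 epithelial markers, 9 were found, with sums of 196 to 417 CPM at ED16 and 8.95 to 11.1 CPM at ED19. Of 11 kidney markers, 8 were found, with sums of 142 to 425 CPM at ED16 and 3.83 to 5.23 CPM at ED19, and AGXT and PIPOX among them were at 0 in all ED19 libraries. Erythroid and thrombocyte, T and NK cell and fibroblast markers were also lower at ED19 in sum. Of 7 T and NK cell markers found, 6 were called higher at ED16 and CD2 higher at ED19, and CD3D carried most of the sum. Of 6 granulocyte and macrophage markers found, 5 were called higher at ED16, MMP9 and CSF3R among them, and SPI1, which B-cells also express, was higher at ED19 and carried most of the sum. Of 6 endothelial markers found, 4 were called higher at ED16 and PECAM1 higher at ED19. In such bulk samples, fewer cells of a type and less RNA per cell cannot be told apart. The part of other cells in the values below was not tested.

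Of the 45 genes, 37 were higher at ED19 and 8 were higher at ED16. All 45 had enough counts to be compared and passed edgeR's quasi-likelihood F test in the same direction, where 30.8% of all 13923 genes compared were called higher at ED19 and 35.6% higher at ED16. In all 45 genes every library of the higher stage lay above every library of the other stage, without overlap, as also held for 33.1% of all genes toward ED19 and 38.4% toward ED16. Since only called genes could be members, nothing is read from these counts. The median log2 fold change of the 45 genes was -1.21, and that of all genes compared was 0.05. Among the 6119 called genes with a symbol that were compared, 47.7% were higher at ED19 and the median log2 fold change was 0.76. Among the 45 genes, 82.2% were higher at ED19.

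**Figure D1:**
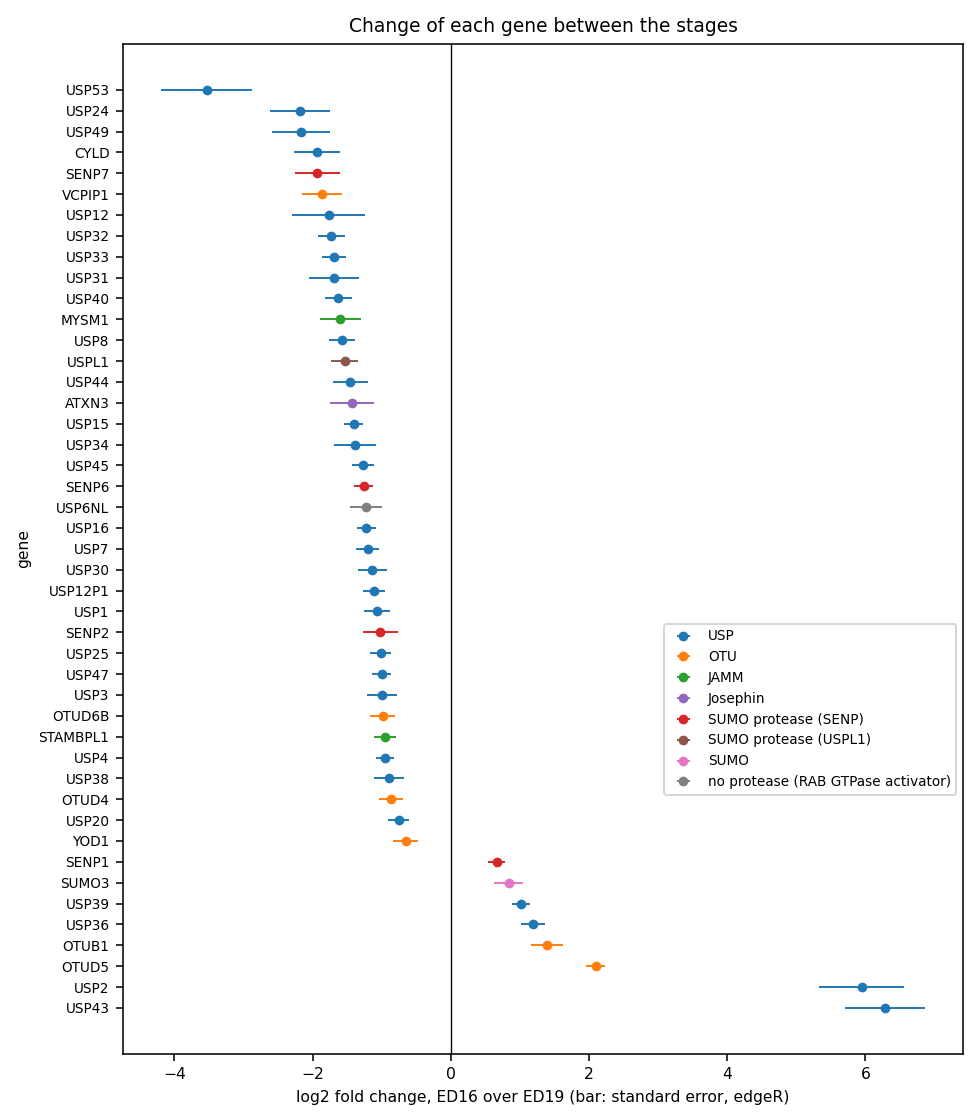
Log2 fold change (ED16 over ED19, x axis) of each of the 45 genes (y axis), with its standard error as a bar and its family as a colour. Most genes lie between -2.18 and -0.65, USP53 lies at -3.53, and 8 genes lie to the right of 0. USP2 and USP43 were near 0 counts at ED19, so their fitted positions depend on the prior count.

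The changes were mostly moderate in size. At ED19, 29 genes were higher by a log2 fold change of at least 1 in size, and at ED16, 6 genes were. Of all 13923 genes compared, 2502 were called higher at ED19 with a change of that size and 3959 higher at ED16. Nothing is read from these counts. The smallest change was that of YOD1 at -0.65 ± 0.18, and SENP1 with 0.66 ± 0.13 was the smallest toward ED16. Relative to its standard error the change of USP12 was the smallest, with a log2 fold change of -1.77 and a standard error of 0.53. The next was YOD1. The threshold of the selection lay in the authors' own test, whose values were not used, and genes outside it carry no name in the files.

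**Figure D2:**
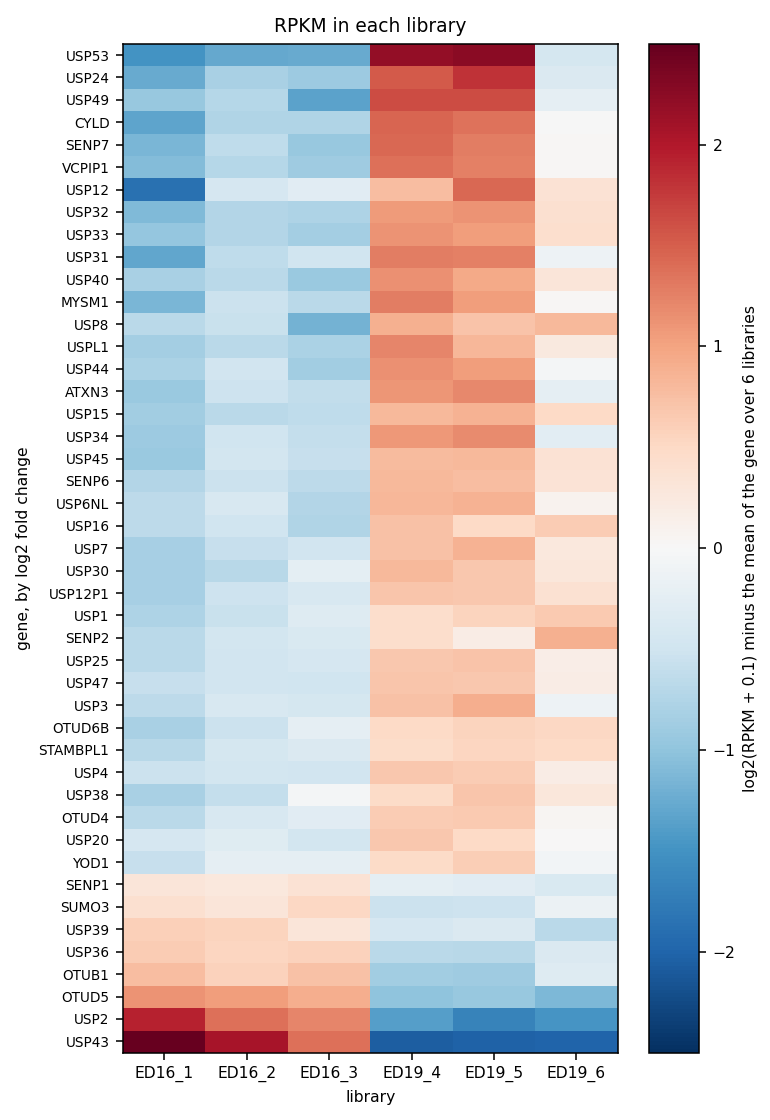
RPKM of the 45 genes (rows, ordered by log2 fold change) in the 6 libraries (columns). The colour is log2(RPKM + 0.1) minus the mean of the gene, with colours ending at 2.5 in either direction. ED19_6 is paler than ED19_4 and ED19_5 in many of the 37 upper rows, and ED16_1 is the darkest of the ED16 columns in many of them.

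SUMO3, the modifier itself, had the highest level of the 45 genes at both stages. Its RPKM reached 758, 705 and 823 at ED16 and 394, 399 and 515 at ED19. Every ED16 library was above every ED19 library, and ED19_6 was the highest of its stage. SUMO3 was 1.79-fold higher at ED16 (log2 fold change 0.84 ± 0.21), but with a correction for gene length the value was 0.41 and SUMO3 was no longer called. At ED16 98.9% and at ED19 98.6% of all genes compared had a lower mean RPKM.

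The enzymes that remove SUMO split into directions. SENP1, which matures SUMO precursors and takes SUMO off proteins, was higher at ED16. At ED16 its RPKM was 24.7, 23.8 and 25.5 and at ED19 16.9, 16.3 and 15.2, a difference 1.58-fold in size and larger than the spread within either stage. SENP6 and SENP7, which are known for trimming SUMO chains, were higher at ED19. SENP6 had an RPKM of 6.26, 7.17 and 6.65 at ED16 and 18.6, 18.1 and 13.4 at ED19 (log2 fold change -1.26 ± 0.14). SENP7 had an RPKM of 1.18, 1.72 and 1.37 at ED16 and 7.53, 6.81 and 2.79 at ED19, so that ED19_6 lay well below the other ED19 libraries. Its log2 fold change was -1.93 ± 0.32. SENP2, which like SENP1 acts on precursors and conjugates, had 3.47, 4.09 and 4.33 at ED16 and 7.65, 6.39 and 10.5 at ED19. Here ED19_6 was the highest library of all. USPL1, a SUMO protease of Cajal bodies, was 2.90-fold higher at ED19, with 7.36, 8.27 and 7.62 RPKM at ED16 and 31.2, 23.8 and 15.8 at ED19.

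The shares of the SENP transcripts within a library do not depend on scaling between libraries. Of the summed RPKM of the 4 SENP genes measured, SENP1 held 67.1 ± 2.34% (SD, n = 3) at ED16 but 34.6 ± 1.49% at ED19. SENP6 held 18.2 ± 1.12% at ED16 and 35.6 ± 3.14% at ED19. At ED16 SENP1 was thus by far the leading SENP transcript of the 4, and at ED19 SENP1 and SENP6 were at levels that did not differ beyond their spread. The share of SENP7 was 3.87 ± 0.719% at ED16 and 11.96 ± 4.59% at ED19. The sum itself was 36.7 ± 1.11 RPKM at ED16 and 46.7 ± 4.45 RPKM at ED19. SENP5 and SENP8 were not analysed here. The stage difference chose the 4 SENP genes measured, so their shares do not describe all SENP genes.

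**Figure D3:**
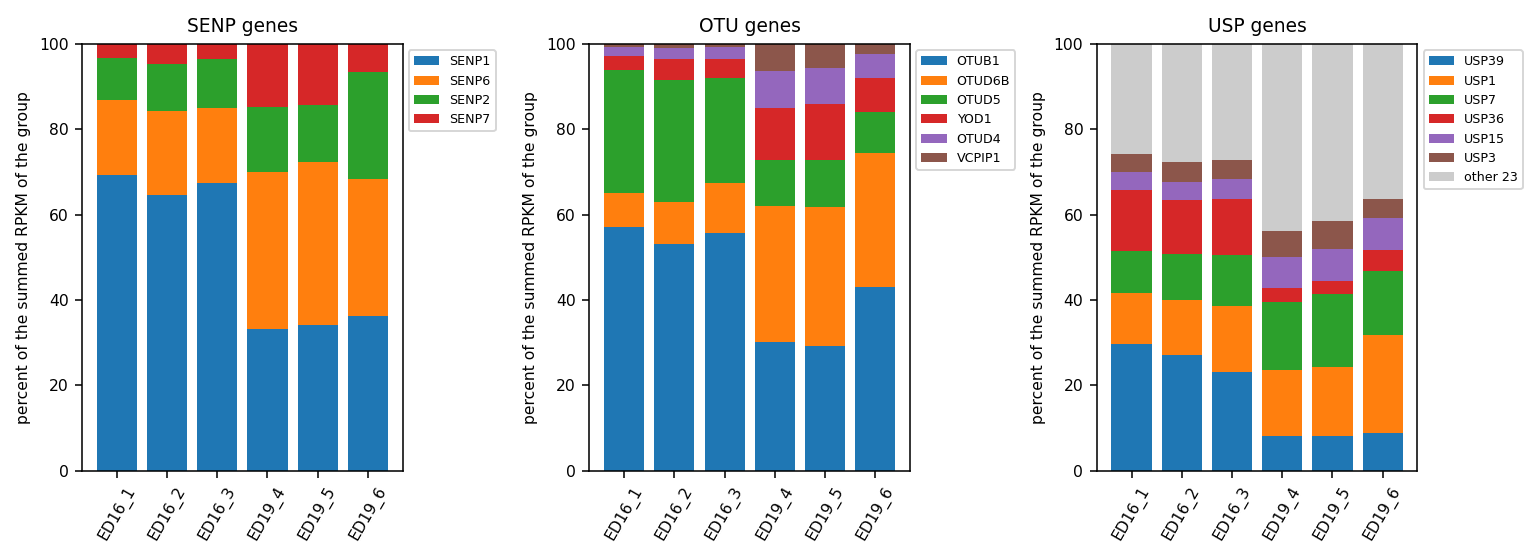
Share of each gene in the summed RPKM of the SENP, OTU and USP genes described here (y axis, percent) in each library (x axis), with up to 6 genes per panel in colour and the others in grey. SENP1 goes from 67.1% to 34.6% of its panel and OTUD5 from 27.3% to 10.5%, while OTUD6B goes from 9.80% to 31.9%.

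The writers of SUMO were looked up in a list of 25 SUMO enzymes and SUMO-dependent genes outside the name pattern. Of these, 12 had a name in the files, 3 were called higher at ED16 and 9 higher at ED19, and their median log2 fold change was -0.99. They too were called genes, so the counts describe the list only. UBA2, the catalytic subunit of the SUMO-activating enzyme, was higher at ED19 (log2 fold change -1.80 ± 0.14), with 27.5, 33.6 and 29.9 RPKM at ED16 and 114, 119 and 94.9 RPKM at ED19. An assembled transcript outside the annotation, described in the files as SUMO-activating enzyme subunit 2, was higher at ED19 too (log2 fold change -1.53 ± 0.23). The partner subunit SAE1 has no symbol in the files. Assembled transcripts described as resembling SUMO-activating enzyme subunit 1 were higher at ED16. One, of 765 bases, had 78.5, 67.2 and 53.8 RPKM at ED16 and 31.3, 25.2 and 47.5 RPKM at ED19, and the other, of 1075 bases and described as partial, had 91.4, 76.4 and 84.6 RPKM at ED16 and 24.8, 22.4 and 28.3 RPKM at ED19. With a correction for gene length the log2 fold change of the first went from 0.96 to 0.36. The transcripts of the SUMO-activating subunits thus differed in direction between the stages. Fragments of a gene outside the annotation may share reads with other loci, so these levels are uncertain.

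The PIAS ligases, which help attach SUMO, also moved apart. PIAS1 was higher at ED19 (log2 fold change -1.63 ± 0.27), and PIAS3 and PIAS4 were higher at ED16, with 1.39 ± 0.30 and 0.79 ± 0.14. PIAS3, with 450 bases and at most 188 counts in a library, went to 0.53 with a correction for gene length. MORC3, a nuclear body protein, changed by -1.73 ± 0.17 (log2) toward ED19. NSMCE2, the SUMO ligase of the SMC5/6 repair complex, had 12.6, 12.4 and 12.9 RPKM at ED16 and 19.7, 19.1 and 25.3 RPKM at ED19, with ED19_6 the highest. RANBP2, the SUMO ligase of the nuclear pore, changed by -0.88 ± 0.19 (log2), and by -0.33 with a correction for gene length. It had 39.2, 39.3 and 22.9 RPKM in ED19_4, ED19_5 and ED19_6 and at most 18.8 RPKM at ED16. RNF4, which puts ubiquitin on SUMO chains, had 15.4 RPKM at ED16 and 26.1 RPKM at ED19 on average. Its log2 fold change went from -0.71 to -0.34 with a correction for gene length. PIAS2 had no name in the files.

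Among the USP genes, 25 were higher at ED19 and 4 at ED16. At ED16 they summed to 460 ± 16.8 RPKM (SD, n = 3) and at ED19 to 748 ± 111 RPKM, where ED19_6 with 621 was the lowest of its stage but still above every ED16 library. Other USP genes, USP5, USP14 and USP22 among them, were not analysed here. The stage difference chose the genes summed, so the sum does not describe all USP genes. Among the genes summed the leading transcript changed. At ED16 USP39 held 26.6 ± 3.29% of the sum, and at ED19 USP1 with 18.2 ± 4.21% and USP7 with 15.95 ± 1.13% did not differ beyond their spread. The log2 fold change of USP39, which is 928 bases long, went from 1.02 to 0.50 with a correction for gene length.

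USP1 removes ubiquitin from the DNA repair proteins FANCD2 and PCNA, and this role has been shown in the chicken B-cell line DT40. At ED16 its RPKM was 52.5, 61.2 and 72.0, and at ED19 it was 123, 133 and 143. All ED19 libraries were well above the ED16 libraries, ED19_6 included (log2 fold change -1.06 ± 0.19). WDR48, the subunit that activates USP1 as well as USP12, moved the same way. It had 6.91, 8.56 and 8.04 RPKM at ED16 and 17.3, 17.4 and 12.3 at ED19. With a correction for gene length the log2 fold change of WDR48 went from -0.94 to -0.51 and that of USP1 to -0.70. WDR20, a further subunit of the USP12 complex, changed by -1.89 ± 0.32 (log2). It had 10.7, 10.7 and 4.17 RPKM in ED19_4, ED19_5 and ED19_6 and at most 2.43 RPKM at ED16. USP12 itself was low, with 6, 20 and 23 counts in the ED16 libraries and 55, 78 and 33 in the ED19 libraries. USP12P1 has a symbol of the form used for a pseudogene copy of USP12, though its deposited description gives the ubiquitin specific protease domain. It had 833 to 1016 counts at ED16 and 1509 to 2286 at ED19 (log2 fold change -1.11 ± 0.16). Reads that match both copies could be lost or shared, so both levels are uncertain.

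USP7 stabilises MDM2 and p53 and many chromatin proteins. It had 43.1, 51.6 and 55.1 RPKM at ED16 and 127, 141 and 92.0 RPKM at ED19, which is 2.31-fold higher at ED19 with ED19_6 as the lowest library of its stage. USP15 and USP4 are paralogs that act in growth factor and NF-kB signaling and both were higher at ED19. USP15 had 19.9 ± 1.62 RPKM at ED16 and 54.8 ± 7.51 RPKM at ED19 (log2 fold change -1.41 ± 0.14). USP4 had 17.3 ± 0.533 RPKM at ED16 and 34.8 ± 6.13 RPKM at ED19, with -0.95 ± 0.14. USP15 was above USP4 in every library of both stages.

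Some other paralogs also shared a direction. With 25 of 29 USP genes higher at ED19, nothing is read from this for paralogs in general. USP33 and USP20, which act on receptors and on the hypoxia pathway, had log2 fold changes of -1.69 ± 0.17 and -0.75 ± 0.15. USP33 was below USP20 in each ED16 library and above it in each ED19 library. USP44 and USP49, which remove ubiquitin from histone H2B, had -1.45 ± 0.26 and -2.17 ± 0.42, and USP16 and USP45 had -1.22 ± 0.14 and -1.27 ± 0.17. By the deposited domain descriptions, all 5 genes with a DUSP domain were higher at ED19. Of 8 with a UBP-type zinc finger, 7 were higher at ED19, and USP39 was the exception. These counts stand beside 25 of 29 for the USP genes as a whole, and nothing is read from them for the domains.

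MYSM1, USP16 and USP3 are known to take ubiquitin off histone H2A, and other such enzymes, BAP1 and USP22 among them, were not analysed here. MYSM1, a JAMM enzyme needed for B-cell development in mice, had 2.28, 3.56 and 3.21 RPKM at ED16 and 12.8, 10.8 and 5.27 RPKM at ED19. ED19_6 lay between the ED16 libraries and the other ED19 libraries, and the log2 fold change was -1.60 ± 0.29. USP16 had 16.3, 18.2 and 15.3 RPKM at ED16 and 42.9, 36.5 and 40.2 at ED19, with all ED19 libraries alike. USP3 had 20.7 ± 1.87 RPKM at ED16 and 43.5 ± 14.8 at ED19. In the SAGA complex, whose DUB module acts on H2B, ATXN7 changed by -1.14 ± 0.18 (log2). ASXL2, a cofactor of the H2A enzyme BAP1, had 14.6, 17.8 and 17.3 RPKM at ED16 and 58.4, 67.9 and 19.5 RPKM at ED19, so that its difference rests on ED19_4 and ED19_5.

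CYLD removes ubiquitin chains from NF-kB signaling proteins and restrains that pathway. At ED16 its RPKM was 2.63, 3.94 and 3.92, and at ED19 it was 18.6, 17.3 and 6.65. It was 3.82-fold higher at ED19, although ED19_6 lay closer to the ED16 libraries than the other ED19 libraries did. SPATA2, which links CYLD to the linear ubiquitin ligase, was higher at ED19 as well (log2 fold change -1.31 ± 0.21). SHARPIN, a subunit of that ligase, was higher at ED16 with 0.80 ± 0.15, as was TNIP1, a partner of the DUB TNFAIP3, with 0.64 ± 0.13. TAX1BP1, another of the DUB cofactors looked up, went the other way with -0.97 ± 0.14. Its mean was 14.7 RPKM at ED16 and 29.8 RPKM at ED19.

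Besides CYLD, the largest changes toward ED19 among USP genes with a mean log2 CPM of at least 3 were those of USP24, USP49, USP32, USP33, USP31, USP40, USP8 and USP44, from -2.18 to -1.45. USP24, a very large USP, had 2.02, 2.79 and 2.59 RPKM at ED16 and 14.5, 17.5 and 3.85 RPKM at ED19 (log2 fold change -2.18 ± 0.44). USP32, USP31 and USP40 had means of 1.47 to 2.79 RPKM at ED16 and of 5.03 to 9.66 RPKM at ED19. USP8, which works at endosomes with the ESCRT machinery, had 4.83, 5.25 and 3.38 RPKM at ED16 and 14.5, 12.8 and 13.7 RPKM at ED19, with no such gap between the ED19 libraries. At a lower level lay USP53, chosen here after its values were seen, with 22, 24 and 25 counts at ED16 and 420, 386 and 47 counts at ED19. Without ED19_6 its log2 fold change went from -3.53 to -4.06.

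The endosomal partners of USP8 were not uniform. STAM and STAM2, which bind ubiquitinated cargo together with HGS, had log2 fold changes of -0.92 ± 0.23 and -1.56 ± 0.29, whereas HGS had 1.03 ± 0.15. For STAM, ED19_6 with 2.07 RPKM lay nearer to the ED16 libraries than ED19_4 and ED19_5 with 3.97 and 4.04 RPKM. The length correction took STAM to -0.39. STAMBPL1, a JAMM enzyme of endosomes, had 31.3, 37.5 and 39.6 RPKM at ED16 and 70.3, 73.9 and 72.2 RPKM at ED19. Its ED19 libraries lay closer together than its ED16 libraries.

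The remaining USP genes higher at ED19 were USP25, USP30, USP34, USP38 and USP47, with log2 fold changes from -1.39 to -0.89. USP30 sits on the mitochondrial outer membrane, and USP34 regulates Wnt signaling through axin. USP34 had 3.98, 5.31 and 4.94 RPKM at ED16 and 16.0, 17.2 and 6.21 RPKM at ED19. USP47, an enzyme of base excision repair, had 9.69 ± 0.389 RPKM at ED16 and 20.2 ± 3.73 RPKM at ED19.

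The USP genes higher at ED16 differ in kind. USP39 is a splicing factor without protease activity, and it is the only C19 member whose deposited description lacks the ubiquitin specific protease domain. It had 131, 128 and 108 RPKM at ED16 and 65.5, 67.8 and 54.6 RPKM at ED19 (log2 fold change 1.02 ± 0.13). With a correction for gene length its log2 fold change was 0.50. USP36 is a nucleolar enzyme that acts in ribosome production. It had 64.0, 59.6 and 61.6 RPKM at ED16 and 25.9, 25.4 and 31.9 RPKM at ED19, which is 2.28-fold higher at ED16.

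USP2 and USP43 were near 0 at ED19 and are named after their values were seen. The ED16 libraries held 104, 59 and 54 counts of USP2 and the ED19 libraries 2, 0 and 1. Those of USP43 were 141, 83 and 52 at ED16 and 1 in each ED19 library. Taking 3 counts per library as the floor, USP2 was at least 22.5-fold and USP43 at least 28.4-fold higher at ED16. With both set to these bounds the median log2 fold change of the 45 genes is still -1.21. In ED16_1, ED16_2 and ED16_3 the epithelial markers summed to 417, 266 and 196 CPM and the kidney markers to 425, 169 and 142 CPM, the same order as the counts of USP2 and USP43. The erythroid and thrombocyte markers ran in this order too in sum, with 1907, 1671 and 1250 CPM. HBAA carried most of that sum, and SLC4A1 with 39.3, 43.6 and 25.1 RPKM did not follow the order. T and NK cell, granulocyte and macrophage, fibroblast and endothelial markers did not run in this order in sum. The B-cell marker sum ran in reverse, with 251, 282 and 311 CPM. BLNK carried most of it, with 98.3, 114 and 121 RPKM. BACH2 with 5.33, 7.26 and 6.44 RPKM and TNFRSF13C with 27.8, 28.5 and 27.5 RPKM did not run in reverse. The part of these markers was not tested. UCH-L1, a ubiquitin hydrolase abundant in neurons whose hyphenated name fell outside the pattern, changed by 3.04 ± 0.33 (log2), with 23.7, 20.1 and 19.9 RPKM at ED16 and 2.05, 1.96 and 3.84 RPKM at ED19.

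The shares of the 6 OTU genes described here differed between the stages, while others, OTUD1 and OTUD3 among them, were not analysed. The stage difference chose these genes, so their shares do not describe all OTU genes. OTUB1, which blocks ubiquitin-conjugating enzymes as well as cutting chains, had 159, 140 and 155 RPKM at ED16 and 50.9, 50.7 and 75.0 RPKM at ED19. It was 2.62-fold higher at ED16. OTUD5, which limits interferon signaling through TRAF3, had 80.2, 75.5 and 68.6 RPKM at ED16 and 18.3, 19.0 and 16.9 RPKM at ED19 (log2 fold change 2.10 ± 0.13). Both gaps between the stages were larger than the spread within either stage. OTUD6B had 21.8, 26.3 and 32.4 RPKM at ED16 and 53.5, 56.3 and 54.5 RPKM at ED19, in the other direction. Its share of the summed RPKM of the 6 OTU genes went from 9.80 ± 1.92% (SD, n = 3) at ED16 to 31.9 ± 0.613% at ED19, and that of OTUD5 was 27.3 ± 2.32% at ED16 and 10.5 ± 0.715% at ED19. OTUB1 held 55.3 ± 2.08% at ED16 and 34.2 ± 7.67% at ED19. OTUD4, which binds RNA, was higher at ED19 like OTUD6B (log2 fold change -0.86 ± 0.17).

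VCPIP1, YOD1 and ATXN3 work with the p97 segregase (VCP), which unfolds ubiquitinated proteins. VCPIP1, known for Golgi reassembly, had 1.85, 2.41 and 2.12 RPKM at ED16 and 10.6, 9.72 and 4.12 RPKM at ED19. YOD1, which acts in the degradation of proteins from the endoplasmic reticulum, had 9.71, 12.5 and 12.4 RPKM at ED16 and 20.4, 22.5 and 14.0 RPKM at ED19. ED19_6 was only just above the ED16 libraries for YOD1, and more clearly so for VCPIP1. ATXN3 had 5.99, 7.92 and 7.42 RPKM at ED16 and 24.6, 26.4 and 9.72 RPKM at ED19 (log2 fold change -1.43 ± 0.31). NPLOC4, a p97 cofactor that brings in ubiquitinated clients, went the other way (log2 fold change 0.62 ± 0.18).

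Across the other lists outside the name pattern the direction was mixed. All symbols looked up numbered 103, older names included, of which 39 had a name in the files. Since only called genes carry names, all 39 were called, 28 higher at ED19 and 11 higher at ED16, with a median log2 fold change of -0.88. With the length correction 26 and 10 were called. Beside them stand the 47.7% of called genes with a symbol that were higher at ED19, and nothing particular to the lists is read from the counts. Of 16 DUB cofactors, 12 were higher at ED19. The subunits of the BRCA1-A and BRISC complexes, FAM175A, FAM175B and BRE, had log2 fold changes of -0.84, -0.86 and -0.77. With the length correction these were -0.59, -0.54 and -0.29. A list of further genes of DUB families, made by name and not by enzyme activity, gave 6 genes. Of these MPND, which has a JAMM domain, changed most toward ED16 (2.74 ± 0.50, with 3 to 5 counts per library at ED19). FAM105A, a relative of the linear chain protease OTULIN, changed most toward ED19 (-1.08 ± 0.30). For FAM105A, ED19_6 had 4.11 RPKM, against 9.19 and 9.48 RPKM in ED19_4 and ED19_5 and at most 3.92 RPKM at ED16. The paralogs FAM63A and FAM63B differed in direction, with 1.18 ± 0.16 and -0.99 ± 0.14. Among 5 ubiquitin-like proteins UBL3 had the largest change toward ED19 (log2 fold change -1.41 ± 0.23), and URM1, a modifier of transfer RNA and proteins, the largest toward ED16, with 0.93 ± 0.25. UBB, NEDD8, COPS5 and PSMD14 had no name in the files.

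The order of levels differed between the stages. At ED16 the genes after SUMO3 were OTUB1 with 151 ± 10.1 RPKM (SD, n = 3), USP39 with 122 ± 12.8, OTUD5 with 74.7 ± 5.84, USP1 with 61.9 ± 9.74 and USP36 with 61.7 ± 2.17. USP1 and USP36 did not differ beyond their spread. At ED19 they were USP1 with 133 ± 9.996 RPKM, USP7 with 120 ± 25.2, STAMBPL1 with 72.1 ± 1.81, USP39 with 62.6 ± 7.05 and OTUB1 with 58.9 ± 14.0. USP1 and USP7 did not differ beyond their spread, nor did USP39 and OTUB1. The median of the mean RPKM of the 45 genes was 6.69 at ED16 and 16.1 at ED19, beside 6.29 and 7.78 over all genes compared.

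The ED19 libraries were not alike for these genes. ED19_4 and ED19_5 differed by a median of 0.10 on the log2 scale, while ED19_6 differed from their mean by a median of 0.40 in size. Of the 37 genes higher at ED19, 30 were lower in ED19_6 than in both other ED19 libraries (81.1%), as were 62.1% of all genes called higher at ED19. For these 37 genes ED19_6 reached a median of 71.3% of the log2 distance from the ED16 mean to the mean of ED19_4 and ED19_5, and for all genes called higher at ED19 80.0%. This comparison lies within a stage and rests on a single library, so it was not tested.

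The genes fell into different places along that distance. In 13 genes ED19_6 was nearer to the ED16 mean, USP24 with 29.1%, USP34 with 29.2%, USP53 with 32.1% and ATXN3 with 32.1% being the lowest. CYLD, SENP7, VCPIP1, MYSM1, USP49, USP44, USP31, USP3 and YOD1 were the others. In 6 genes, USP8, USP16, USP1, OTUD6B, STAMBPL1 and SENP2, ED19_6 lay beyond the mean of the other ED19 libraries, by 0.21 to 0.80 on the log2 scale. The B-cell markers summed to 742, 777 and 605 CPM in ED19_4, ED19_5 and ED19_6, and the T and NK cell markers to 115, 110 and 203 CPM. CD3D carried most of the latter sum, with 126, 115 and 205 RPKM, and CD2 was also highest in ED19_6. In contrast, CD3E with 5.22, 5.13 and 4.82 RPKM and LCK with 3.07, 3.19 and 2.34 RPKM were lowest in ED19_6. CD4, CD8A and ZAP70 had at most 17 counts in an ED19 library. Of the 3 B-cell markers ED19_6 reached 87.1% of the same distance for BLNK, 71.8% for TNFRSF13C and 26.7% for BACH2. The part of these markers was not tested. Without ED19_6 all 45 genes kept their direction.

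**Figure D4:**
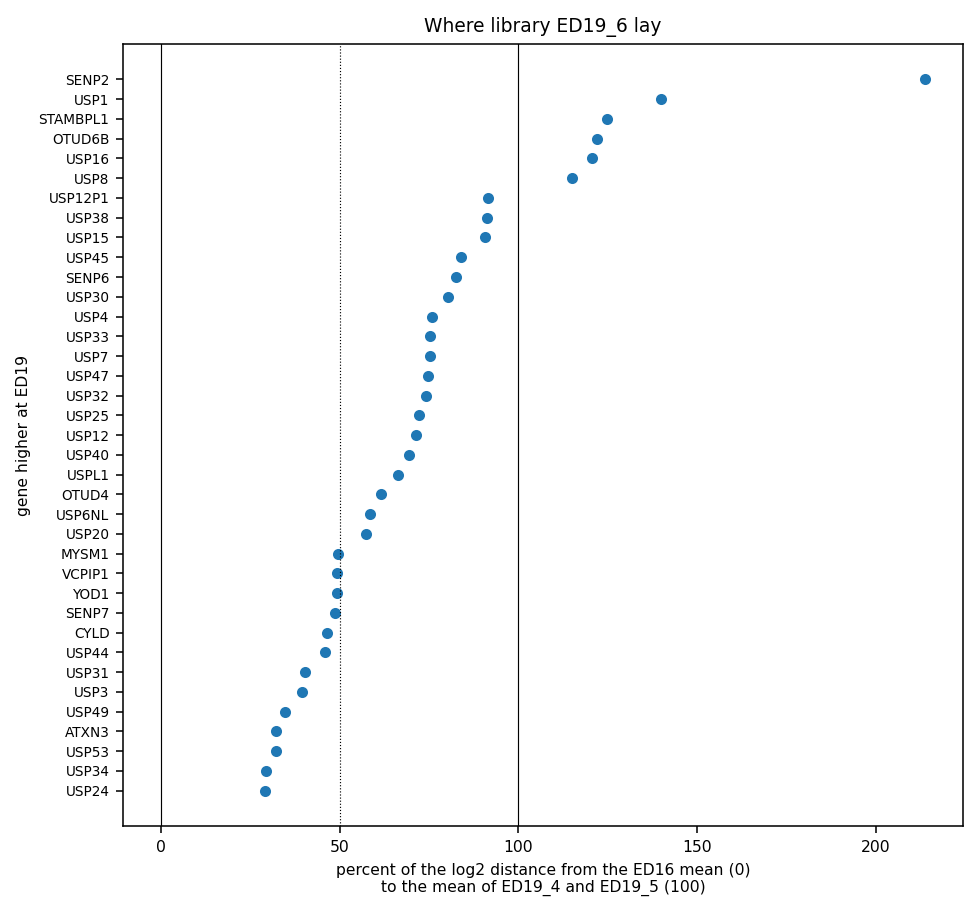
Position of ED19_6 for the 37 genes higher at ED19 (y axis) on the log2 scale from the ED16 mean (0%) to the mean of ED19_4 and ED19_5 (100%, x axis). The points run from 29.1% for USP24 to 214% for SENP2, with 13 genes left of the dotted line at the middle and 6 right of 100%.

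The ED16 libraries spread by a median of 0.36 on the log2 scale for the 45 genes and by 0.37 for all genes compared. The widest spread at ED16 was that of USP12, with 1.79 and few counts, followed by USP43 with 1.22.

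The genes described are long. Their median length in the annotation used was 3370 bases, against 2063 bases for all genes compared. The 37 genes higher at ED19 had a median length of 3754 bases and the 8 higher at ED16 one of 1677 bases, beside 2883 and 1622 bases for all genes called higher at ED19 and at ED16. Across the 45 genes log2 length and log2 fold change had a Pearson r of -0.39, and across all genes one of -0.16. Genes are not independent replicates and share their libraries, so no p is given. The authors reported a lower RNA integrity score, a higher GC content and a lower share of mapped reads at ED16 than at ED19. These differences run with the stage, so their part in the length pattern cannot be told apart from it and was not tested. When each library was corrected for gene length, all 45 genes kept their direction and their median moved to -0.77, but OTUD4, SENP2, SUMO3, USP20, USP38 and YOD1 were no longer called. Among the longest genes USP24 went from -2.18 to -1.59 and USP34 from -1.39 to -0.76, and SENP1 went from 0.66 to 1.09.

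**Figure D5:**
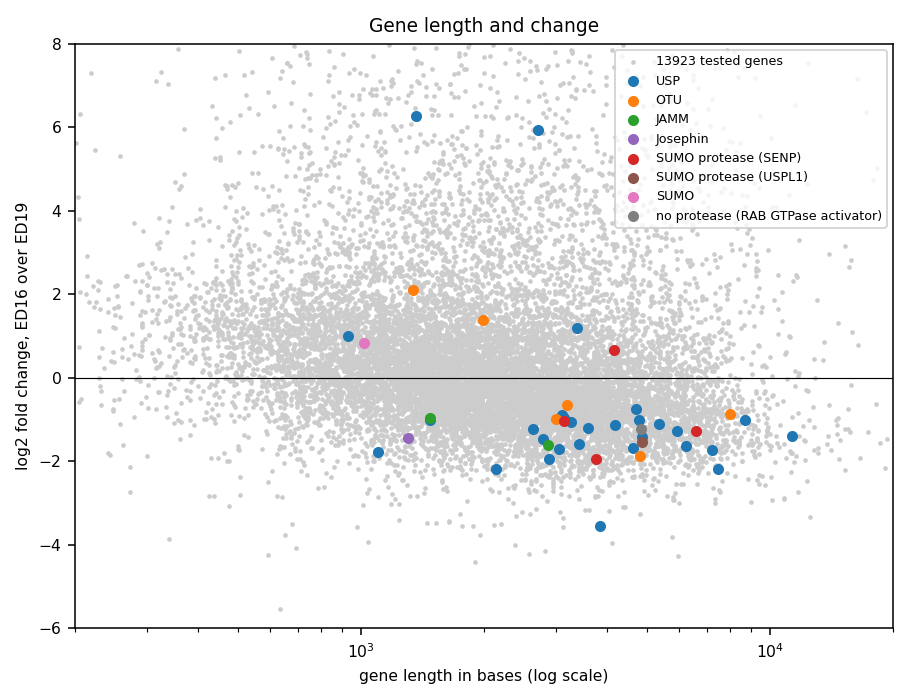
Gene length in bases (x axis, log scale) against log2 fold change (ED16 over ED19, y axis) for all 13923 genes compared (grey, 288 of them outside the axes) and the 45 genes by family (colours). The genes higher at ED19 had a median length of 3754 bases and those higher at ED16 one of 1677 bases.

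Among called genes without a symbol, the deposited descriptions place further DUBs. A very long gene with a C19 protease domain, ENSGALG00000016236, had 14.3, 17.4 and 16.2 RPKM at ED16 and 52.7, 56.6 and 27.1 RPKM at ED19, again with ED19_6 lowest in its stage. ENSGALG00000011427, with a C19 domain and a ubiquitin interacting motif, had 9.29 RPKM in ED19_6, inside the range of 7.88 to 9.76 RPKM at ED16. ENSGALG00000013057 changed by 1.12 ± 0.22 (log2) at a low level, with 3.54 RPKM at ED16 and 1.68 RPKM at ED19 on average.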

How the data were processed

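Poly-A RNA of bursal lymphocytes was sequenced in 6 libraries, 3 per stage, on an unstranded kit, so antisense reads could not be separated. Per the submitters' processing notes, reads were aligned to galGal4 with TopHat2 2.0.12. HTSeq then gave the raw counts that the authors deposited, and the deposited RPKM values were computed by the authors from them. Dividing counts by RPKM and by the library total gave gene lengths that were whole within 0.01 bases for all 17458 genes with a count. The authors also deposited a table of called genes, with a signal per stage (mean normalized counts), the log2 fold change they computed and the p-values they obtained with DESeq. From that table the gene identifiers, names and domain descriptions were used, and its values were not.

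Counts were compared between the stages with edgeR 4.0.16 in R 4.3.3 (filterByExpr, TMM, quasi-likelihood F test, Benjamini-Hochberg adjusted p below 0.05). The standard error is the log2 fold change divided by the square root of F. A gene at 3 counts or fewer in every library of a stage was set against a floor of 3 counts per library, and these bounds cover counting error only. The reads are not independent molecules. The position of ED19_6 was computed on TMM-normalized log2 CPM with a prior count of 2. Alternatives were upper-quartile normalization, DESeq2 1.42.0, no filter, a minimum of 10 counts in each library, a length correction by loess (span 0.5, centred per library), limma 3.58.1 on log2(RPKM + 1), an adjusted p below 0.01, a log2 fold change of at least 1 and leaving out each library. The fits were tested on simulated data. Figures used matplotlib 3.10.9 and summaries numpy 2.4.6 with pandas 2.3.3 under Python 3.11.15.

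The members and the lists were chosen with earlier results of these data known. The genes named are all that are not USP or OTU genes, up to 8 USP and OTU genes per direction with the largest change at a mean log2 CPM of at least 3, the 3 smallest changes, the 3 highest levels, 12 listed pathway genes and the largest change per list. Members and pathway genes outside this rule were named after their values were seen. Some listed genes are not reported here. Sequences, promoters and proteins were not used here. Family genes that the table of called genes does not list were not analysed here. The depth per library was 27087661 to 34614652 counts.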

Additional observations from a re-analysis of the deposited data

How the results depend on the processing

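All 45 genes kept their direction under every alternative that gave a value, and 3 of them, USP2, USP12 and USP43, had none with at least 10 counts in every library. The median log2 fold change of the 45 genes moved from -1.21 to -0.77 with the length correction and to -0.999 with upper-quartile normalization, which also moved the median of all genes from 0.05 to 0.26. With a minimum log2 fold change of 1, 2502 of all genes were called higher at ED19 and 3959 higher at ED16. Of the 39 pathway genes outside the name pattern 5 were then called higher at ED16 and 14 higher at ED19. YOD1 was not called with upper-quartile normalization or without ED16_1, and USP12 was not without ED19_5. Leaving out ED19_4 moved USP2 most, to a log2 fold change of 6.66, a size that depends on few counts. Of the fits without a library, that without ED19_6 moved 31 of the 45 genes most, and no gene but USP2 moved by over 1.5 times. The median of ED19_6 against ED19_4 and ED19_5 over the 45 genes was -0.31 and kept its direction with log2(RPKM + 1) and with upper-quartile normalization. The causes were not tested. No paired analysis was possible because each library came from its own pool of bursas and no pairing between the stages is given.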
